A study of Mus musculus with 29 samples.

Results

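DNA methylation of 5 mouse genes known for their use in eosinophils, namely Epx, Prg2, Il5ra, Ccr3 and Siglecf, was examined in the lung. All windows named for 1 of these 5 genes in the table of genic windows were taken, which gave 16 of 260686 windows. A window is a stretch of about 50 CpG dinucleotides, and its value is the percent of cytosines in CpG that were methylated (%DNAm). Female BALB/c offspring aged 13 weeks were studied, and DNA came from a homogenate of 1 lung lobe (RML in the labels). Dams received saline (Sham) or fine airborne particles, PM2.5 (PM), into the nose before mating, through gestation and up to weaning. As adults the offspring were sensitised and challenged with ovalbumin (OVA), an egg protein that induces allergic airway disease (AAD), or were given the vehicle. Lungs of all groups were taken after a lung function test with rising doses of methacholine. The study's methods describe saline lavage of the airways directly after that test, and whether every sequenced lung was lavaged is not stated. The groups were Sham (saline dam, no OVA, n = 7), Sham-OVA (saline dam, OVA, n = 7), PM (PM2.5 dam, no OVA, n = 7) and PM-OVA (PM2.5 dam, OVA, n = 8). No genetic alteration or transgene is named for any group.

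Eosinophils are granulocytes that enter the airways in allergic inflammation under the control of interleukin-5 and eotaxins. Epx encodes eosinophil peroxidase and Prg2 encodes major basic protein, both stored in the granules. Il5ra encodes the interleukin-5 receptor subunit that binds the cytokine, Ccr3 the eotaxin receptor, and Siglecf a sialic acid-binding lectin of the surface, which mouse alveolar macrophages also carry. Methylation near the start of a lineage gene is often low in the cell types that use the gene and high in those that do not. In whole-lung DNA, a change in the mix of cells and a change within a cell type cannot be told apart. Expression was not analysed here, so the label of these genes as eosinophil genes rests on background knowledge.

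All 16 windows had a value in each of the 29 libraries and passed the filter of at least 3 values per group, which 259167 windows met. Libraries had values in 258952 to 260135 windows. The library Sham replicate 1 stood apart in that it had values in 1224 of 1230 Y chromosome windows, against 29 to 46 in the other 28 libraries, whereas the animals are described as female. Counts over the 16 windows, the eosinophil programme and the neutrophil list, the window of each gene with the largest OVA difference and the gene means are therefore also given without it, whereas the other values and the figures include it. The study's methods describe high genome coverage in every replicate, but the table gives percentages without read counts, so depth per window could not be given and errors are the spread between libraries.

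Windows are numbered along each gene in the direction of transcription, and positions are those of GRCm38. Epx lies on the minus strand of chromosome 11 (chr11:87864000-87875536) and had 4 windows, and Il5ra on the minus strand of chromosome 6 (chr6:106710357-106749037) had 6. Prg2 (chr2:84980461-84983632), Ccr3 (chr9:124021972-124031689) and Siglecf (chr7:43351341-43359531) lie on the plus strand and had 2 windows each. The windows covered 87.7% of Epx, 88.0% of Ccr3, 98.0% of Il5ra, 98.7% of Siglecf and all of Prg2. In each gene, window 1 held the annotated start site. A further window reached into the 3′ end of Epx but is named for Mks1 in the table, and is described with the neighbours.

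To show which cytosines these windows read, promoter sequences are given for the 4 of 5 genes that were matched in the RefSeq table of promoters (GRCm38.p6). Prg2 was not matched. Each line holds the 250 bases before the RefSeq start, 5′ to 3′ on the strand of the gene, with CpG in capitals. All lie in window 1 of their gene, at chr11:87875537-87875786, minus strand, for Epx, chr6:106749038-106749287, minus strand, for Il5ra, chr9:124021721-124021970, plus strand, for Ccr3 and chr7:43351091-43351340, plus strand, for Siglecf.
Epx: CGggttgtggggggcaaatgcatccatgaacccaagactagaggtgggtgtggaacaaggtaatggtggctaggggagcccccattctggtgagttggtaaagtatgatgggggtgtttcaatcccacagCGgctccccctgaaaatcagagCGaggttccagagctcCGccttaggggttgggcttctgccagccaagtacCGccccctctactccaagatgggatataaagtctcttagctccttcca
Il5ra: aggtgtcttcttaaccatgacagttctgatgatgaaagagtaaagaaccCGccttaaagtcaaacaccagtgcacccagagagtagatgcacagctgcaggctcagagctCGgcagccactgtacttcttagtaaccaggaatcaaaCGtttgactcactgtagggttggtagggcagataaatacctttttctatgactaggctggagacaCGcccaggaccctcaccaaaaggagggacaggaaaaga
Ccr3: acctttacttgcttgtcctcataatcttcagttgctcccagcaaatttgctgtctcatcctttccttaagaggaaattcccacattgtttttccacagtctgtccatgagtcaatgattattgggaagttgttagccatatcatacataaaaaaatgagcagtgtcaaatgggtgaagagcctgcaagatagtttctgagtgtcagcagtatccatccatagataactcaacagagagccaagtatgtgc
Siglecf: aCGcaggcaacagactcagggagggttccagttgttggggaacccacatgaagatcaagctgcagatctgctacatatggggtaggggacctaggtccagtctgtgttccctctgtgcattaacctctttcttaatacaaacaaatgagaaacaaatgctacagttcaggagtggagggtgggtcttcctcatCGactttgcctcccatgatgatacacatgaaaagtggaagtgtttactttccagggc
Counted over 300 bases, from 250 bases before the start to 50 bases after it, the promoters held 5 CpG in Epx, 4 in Il5ra, 2 in Siglecf and 1 in Ccr3, and the median among 32851 promoters in the same table was 7. In Ccr3 the 250 bases shown hold 0 CpG. GATA1 is a factor needed for eosinophil development, and 4 forms of the GATA motif were searched on both strands of those 300 bases. The form AGATAA was found in Il5ra at position -74 from the start and in Ccr3 at -30. The form AGATAG was found in Ccr3 at -64. In Siglecf the form TGATAG lay at position 2 after the start and the form TGATAA at position 11. None was found in the 300 bases of Epx. At least 1 of these 4 forms occurred in 29.8% of all promoters and at least 2 in 7.77%, so a match is a description of the sequence alone.

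Between Sham-OVA and Sham, Epx window 2 and Il5ra window 1 met the criteria of a differentially methylated region (DMR). A DMR here has an adjusted p under 0.05 and group means that lie 10 or more percentage points apart. The CpG-densest 300 bases of each are shown, clear of annotated untranslated bases, since most cytosines behind these values lie outside the promoter stretches above. The Epx stretch (chr11:87871411-87871710, minus strand) holds 15 CpG, and 209 of its bases are coding exon.
Epx window 2: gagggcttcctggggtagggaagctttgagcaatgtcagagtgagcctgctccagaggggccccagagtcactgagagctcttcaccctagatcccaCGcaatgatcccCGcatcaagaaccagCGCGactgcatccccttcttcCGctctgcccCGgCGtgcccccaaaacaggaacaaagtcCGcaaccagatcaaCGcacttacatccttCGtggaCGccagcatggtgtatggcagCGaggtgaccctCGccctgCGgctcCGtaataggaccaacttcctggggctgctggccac
The Il5ra stretch (chr6:106750206-106750505, minus strand) lies upstream of the gene, from position -1468 relative to the start, and holds 7 CpG and 0 exonic bases.
Il5ra window 1: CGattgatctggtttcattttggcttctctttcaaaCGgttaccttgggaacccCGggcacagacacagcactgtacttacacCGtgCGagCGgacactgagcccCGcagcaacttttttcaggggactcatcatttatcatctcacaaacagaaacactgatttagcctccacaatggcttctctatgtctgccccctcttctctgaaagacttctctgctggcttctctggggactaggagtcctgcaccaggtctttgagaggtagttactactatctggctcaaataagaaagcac

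Whether OVA challenge altered methylation of these genes in offspring of Sham dams was asked first. Methylation fell after OVA in 3 of 4 windows of Epx, both of Prg2, 3 of 6 of Il5ra and the start-site window of Siglecf, whereas the other Siglecf window and both Ccr3 windows did not pass the test. Of the 16 windows, 9 fell, 0 rose and 7 did not pass (limma moderated test with Benjamini-Hochberg adjustment over all 259167 windows). Over all tested windows, 35.6% had an adjusted p under 0.05, with 22.3% lower and 13.3% higher, against 56.2% lower among these 16. In total, 2 windows, 1 in Epx and 1 in Il5ra, were DMRs, both lower, where 0.775% of all windows were called and 0.296% were called lower. The median difference was -4.35 percentage points over the 16 windows and -0.414 over all tested windows. Without Sham replicate 1, 9 windows had an adjusted p under 0.05 and 1 was a DMR, since Epx window 2 then differed by -9.74 points. Over all windows 20.5% were then lower, 12.4% higher and 0.751% DMRs. The 16 windows then had a median difference of -4.21 points, and in 7 of them every Sham-OVA library lay below every Sham library, against 6.03% of all windows.

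In offspring of PM dams the same comparison gave 10 windows that fell, 0 that rose and 6 that did not pass. Over all tested windows, 44.1% had an adjusted p under 0.05, with 34.8% lower and 9.26% higher, against 62.5% lower among the 16. No window was a DMR (limma, 0 at the 10-point minimum, 0.584% of all windows called and 0.321% called lower, 10 windows with an unadjusted p under 0.05 against 51.4% of all windows). The median difference was -4.01 points over the 16 windows and -1.03 over all. In both comparisons, 9 windows fell, where 19.7% of all windows did. Libraries were also centred, each by the median of its deviations from the window means. Of the 16 windows, 9 then fell and 2 rose for Sham dams and 9 fell and 1 rose for PM dams, whereas all tested windows split almost evenly (17.8% lower and 18.3% higher, and 18.7% lower and 18.9% higher). The median differences of the 16 windows were then -3.95 and -3.03 points. Libraries with and without OVA did not overlap in 7 windows for Sham dams (5.43% of all windows did so in this direction) and in 8 for PM dams (10.3%), of which 6 were shared (3.4%). In 0 windows did OVA libraries lie above all controls (3.15% and 1.65% of all windows). The comparisons use different control libraries.

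**Figure D1:**
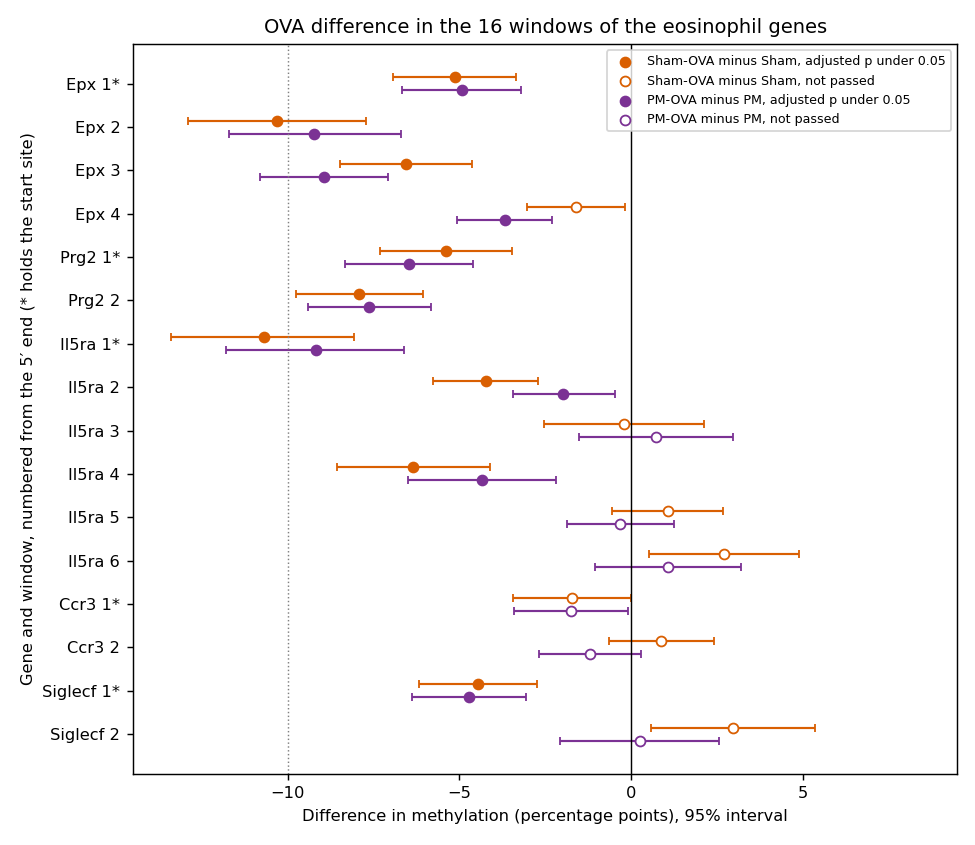
Difference in methylation after OVA, in percentage points, for each of the 16 windows, in offspring of Sham dams (orange, Sham-OVA minus Sham) and PM dams (purple, PM-OVA minus PM). Bars are 95% intervals, filled points have an adjusted p under 0.05, and the dotted line marks -10 points. The largest falls lie in Epx window 2 and Il5ra window 1, and the intervals of both comparisons overlap in every window.

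The genes of the granule proteins were read first. Epx window 2 (chr11:87871411-87874515) lies wholly in the gene body, from 1.02 to 4.12 kb after the start, and 623 of its 3105 bases are exonic. Its methylation had a lowest value of 77.7%, a median of 79.6% and a highest of 83.5% in Sham, and 65.8%, 70.7% and 73.6% in Sham-OVA. In PM the same values were 75.4%, 79.8% and 81.2%, and in PM-OVA 65.7%, 69.7% and 73.6%. Every OVA library lay below every library without OVA from the same kind of dam. Sham libraries averaged 80.0% ± 1.83 (SD, n = 7) and Sham-OVA libraries 69.6% ± 3.09 (SD, n = 7), a difference of -10.3 points (95% interval -12.9 to -7.73, adjusted p = 4.02e-07 by limma). PM libraries averaged 78.9% ± 1.94 (SD, n = 7) and PM-OVA libraries 69.7% ± 2.78 (SD, n = 8), a difference of -9.22 points (95% interval -11.7 to -6.71), which also passed.

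The other Epx windows fell by less. Window 1 (chr11:87874580-87879006), which holds the start site, spanned 61.8% to 66.7% (median 63.4%) in Sham-OVA and 66.1% to 71.2% (median 69.6%) in Sham, so that the ranges overlapped. In PM-OVA it spanned 61.4% to 65.5% (median 62.6%) and in PM 66.3% to 71.0% (median 67.9%), without overlap. The differences were -5.14 points for Sham dams (limma adjusted p = 8.46e-05) and -4.93 points for PM dams (limma adjusted p = 7.54e-05). Window 3 (chr11:87868668-87871410) fell in both, with no overlap in either, and differed by -6.55 points for Sham dams (limma adjusted p = 7.26e-06) and -8.95 points for PM dams (limma adjusted p = 3.43e-08). Window 4 (chr11:87865358-87868667), toward the 3′ end, differed by -1.61 points for Sham dams, which did not pass (limma adjusted p = 0.0731, or 0.0378 without Sham replicate 7 and 0.0234 without Sham-OVA replicate 7), and fell by 3.68 points for PM dams (limma adjusted p = 7.09e-05). Windows 1, 2 and 3 thus fell in both comparisons, with the largest difference in window 2.

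Both Prg2 windows fell in both comparisons. The start-site window (chr2:84975465-84982651) spanned 79.6% to 82.8% (median 81.6%) in Sham and 73.2% to 79.6% (median 76.1%) in Sham-OVA. It spanned 81.3% to 84.1% (median 82.4%) in PM and 73.4% to 80.8% (median 75.4%) in PM-OVA. In neither comparison did the ranges overlap, although the lowest Sham and the highest Sham-OVA library were equal after rounding. The differences were -5.39 points for Sham dams (limma adjusted p = 6.14e-05) and -6.47 points for PM dams (limma adjusted p = 1.94e-06).

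Prg2 window 2 (chr2:84982652-84987898), which holds the last 981 bases of the gene and its 3′ flank, had a lowest value of 79.2%, a median of 82.3% and a highest of 85.0% in Sham, and 71.8%, 73.9% and 76.5% in Sham-OVA. In PM the values were 80.4%, 83.7% and 84.2%, and in PM-OVA 73.5%, 74.8% and 77.4%. The OVA libraries were the lower ones throughout, with a gap of more than 2 points between the ranges. The mean fell from 82.0% ± 1.87 (SD, n = 7) to 74.0% ± 1.94 (SD, n = 7) for Sham dams, a difference of -7.91 points (95% interval -9.75 to -6.06, limma adjusted p = 3.41e-07) that was -8.36 points without Sham replicate 1. For PM dams it fell from 82.8% ± 1.47 (SD, n = 7) to 75.1% ± 1.66 (SD, n = 8), a difference of -7.62 points (95% interval -9.41 to -5.83, limma adjusted p = 1.48e-07).

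**Figure D2:**
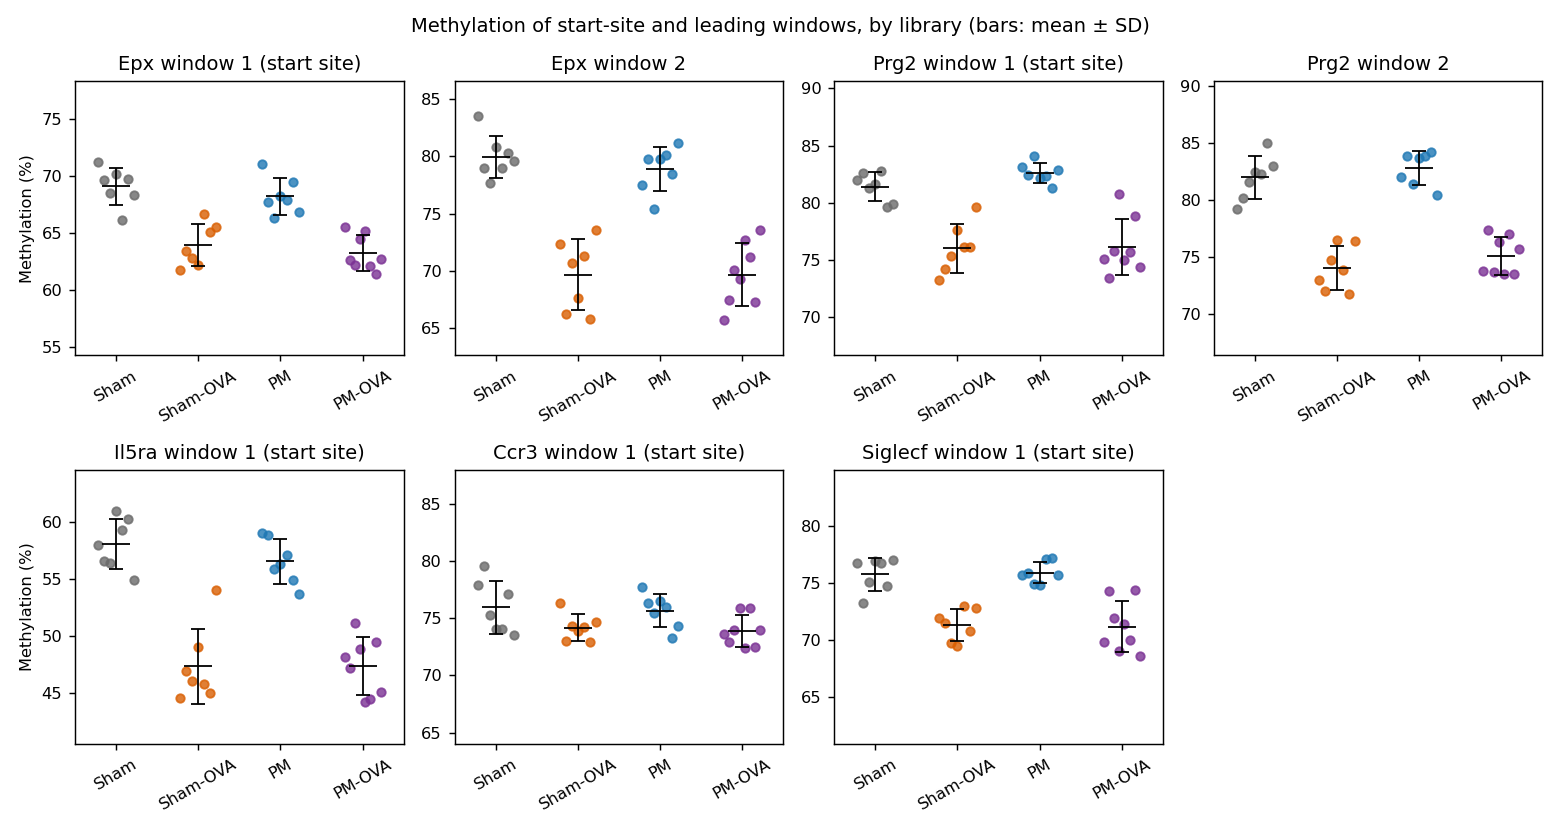
Methylation (%) of the start-site window of each gene and of the windows of Epx and Prg2 with the largest OVA difference, 1 point per library, with the mean and SD of each group (n = 7, 7, 7 and 8). Each panel spans the same number of percentage points and does not start at 0. OVA libraries lie below all libraries without OVA of the same kind of dam in every panel but those of Ccr3, where the groups overlap, and the Epx start-site window, where Sham and Sham-OVA overlap.

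The receptors behaved unevenly. Il5ra window 1 (chr6:106745519-106750926) holds the start site, sequence upstream of it and the first 3519 bases of the gene. It had a lowest value of 54.9%, a median of 58.0% and a highest of 60.9% in Sham, and 44.6%, 46.1% and 54.0% in Sham-OVA. In PM the values were 53.7%, 56.3% and 59.0%, and in PM-OVA 44.2%, 47.7% and 51.1%. No OVA library reached the range of its controls, although 1 Sham-OVA library at 54.0% came close to it. The mean fell from 58.1% ± 2.20 (SD, n = 7) to 47.3% ± 3.30 (SD, n = 7) for Sham dams, a difference of -10.7 points (95% interval -13.4 to -8.06, limma adjusted p = 7.75e-07). For PM dams it fell from 56.5% ± 1.96 (SD, n = 7) to 47.3% ± 2.55 (SD, n = 8), a difference of -9.18 points (95% interval -11.8 to -6.61, limma adjusted p = 2.94e-06). Without Sham replicate 1 the first difference was -10.7 points (limma adjusted p = 2.57e-06).

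Further along Il5ra the direction was not uniform. Window 2 (chr6:106736807-106745518) changed by -4.23 points for Sham dams (limma adjusted p = 2.16e-04) and -1.97 points for PM dams (limma adjusted p = 0.0423), and the latter call was lost in 13 of 37 refits, among them with centred libraries, at -0.986 points (limma adjusted p = 0.626). Refits without a Sham or Sham-OVA library leave this difference unchanged, and all 13 losses lay among the other refits. Window 4 (chr6:106722155-106728612), which is wholly intronic, fell in both and differed by -6.34 points for Sham dams (limma adjusted p = 9.28e-05) and -4.34 points for PM dams (limma adjusted p = 0.00227). Windows 3, 5 and 6 did not pass in either comparison, with differences of -0.201 to 2.70 points for Sham dams and -0.317 to 1.07 points for PM dams. Window 6 (chr6:106702021-106712458), at the 3′ end, had means of 46.0% ± 1.85 (SD, n = 7) without and 48.7% ± 1.91 (SD, n = 7) with OVA for Sham dams (limma adjusted p = 0.0614). It passed for Sham dams in 7 of 37 refits, and with centred libraries it rose in both comparisons, by 3.09 and 2.05 points (limma adjusted p = 0.00904 and 0.0265).

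Neither Ccr3 window passed in any comparison with all libraries. Its start-site window (chr9:124014854-124027610) spanned 73.5% to 79.6% (median 75.3%) in Sham and 72.9% to 76.3% (median 74.2%) in Sham-OVA. It spanned 73.3% to 77.7% (median 76.0%) in PM and 72.4% to 75.9% (median 73.8%) in PM-OVA. The groups overlapped, and the differences were -1.72 points for Sham dams (95% interval -3.45 to 0.0031, limma adjusted p = 0.118; without Sham replicate 1, -1.40 points) and -1.75 points for PM dams (95% interval -3.42 to -0.0817, limma adjusted p = 0.0978, or 0.0498 without PM replicate 6). Window 2 (chr9:124028782-124038725) holds the 3′ part of the gene and differed by 0.880 and -1.19 points (limma adjusted p = 0.424 and 0.211). The intervals leave room for a fall of up to 3.45 points at the start-site window, which is 12757 bp long and has 1 CpG per 255 bp, the sparsest of the 16.

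In Siglecf the start-site window fell and the next one did not pass. The start-site window (chr7:43347305-43353235) spanned 73.2% to 77.0% (median 76.7%) in Sham and 69.5% to 73.0% (median 71.5%) in Sham-OVA. It spanned 74.8% to 77.2% (median 75.7%) in PM and 68.6% to 74.4% (median 70.7%) in PM-OVA. In both comparisons all OVA libraries lay below all controls, with a difference of -4.46 points for Sham dams (95% interval -6.17 to -2.74, limma adjusted p = 1.99e-04; without Sham replicate 1, -4.30 points) and -4.72 points for PM dams (95% interval -6.38 to -3.06, limma adjusted p = 5.56e-05). Window 2 (chr7:43353346-43363485), with the rest of the gene, averaged 56.8% ± 1.78 (SD, n = 7) without and 59.8% ± 2.56 (SD, n = 7) with OVA for Sham dams, and 58.2% ± 2.95 (SD, n = 7) and 58.4% ± 1.70 (SD, n = 8) for PM dams. Its differences were 2.97 points (limma adjusted p = 0.0560) and 0.247 points (limma adjusted p = 0.892). The first passed in 8 of 37 refits, for example at an adjusted p of 0.0471 when percentages were fitted without transformation and 0.0151 with centred libraries.

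Position along the gene was then set beside these differences. Of the 5 start-site windows, 4 fell in each comparison. Among all 16770 tested windows that hold the start of the protein-coding gene they are named for, 11.9% were lower after OVA for Sham dams and 19.9% for PM dams, with median differences of -0.0127 and -0.165 points. Those windows had a median level of 31.1% in Sham, whereas the 5 start-site windows here lay between 58.1% and 81.4%. Of the 11 windows not holding a start, 5 fell for Sham dams and 6 for PM dams. Windows with a middle within 10 kb of the start included 8 of 11 that fell for Sham dams and 9 of 11 for PM dams, against 1 of 5 in each comparison for those farther away. Over all tested windows 22.3% and 34.8% fell, so the share among the farther windows was not above that of the whole table. Of these 5, 4 were in Il5ra, so distance and gene cannot be told apart.

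Windows within 50 kb of the 5 genes and named for other genes were described in the same way. There were 53 such windows in 18 genes, of which 17 fell and 5 rose for Sham dams and 20 fell and 6 rose for PM dams. These are 32.1% lower and 9.43% higher, against 22.3% and 13.3% of all tested windows, and 37.7% and 11.3%, against 34.8% and 9.26%. Their median differences were -0.611 and -0.924 points. Beside Epx, the window over its 3′ end that is named for Mks1 (chr11:87862955-87865357) changed by -3.87 points for Sham dams and -5.09 points for PM dams (limma adjusted p = 8.65e-05 and 6.17e-07), and the next Mks1 window (chr11:87861040-87862954) by -6.56 and -7.94 points. Mks1 encodes a protein of the base of cilia. Beyond it the windows of Lpo, a peroxidase gene related to Epx, differed by -1.46 to 3.06 points for Sham dams.

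Beside Prg2, the single window of Prg3 (chr2:84987899-84996042), which encodes another form of major basic protein, changed by -5.01 points for Sham dams and -7.39 points for PM dams (limma adjusted p = 4.86e-04 and 1.94e-06). A window of Slc43a3, a transporter gene, at -24.9 to -19.6 kb from the Prg2 start (chr2:84955611-84960854) changed by -8.36 and -9.94 points (limma adjusted p = 8.75e-07 and 3.58e-08). Upstream of Il5ra, 4 windows of Trnt1, a tRNA-processing enzyme gene, lay between the start site and Crbn and differed by -1.56 to 1.33 points for Sham dams. A window of Crbn, which encodes cereblon of a ubiquitin ligase (chr6:106788984-106793942), changed by -13.6 and -12.2 points (limma adjusted p = 9.44e-09 and 1.31e-08) and was the only neighbour that was a DMR. The chemokine receptor genes Ccr1 and Ccr1l1, upstream of Ccr3, changed by -3.06 and -2.66 points for Sham dams and -3.81 and -4.85 points for PM dams, and all 4 differences passed. Around Siglecf, 2 of 9 windows fell and 3 rose for Sham dams, and 3 fell and 4 rose for PM dams. A window of Gm44539, just upstream, changed by -4.14 and -3.70 points, a window of Zfp715, farther upstream, rose by 4.55 and 2.61 points, and the windows of Siglecg, a related lectin gene, changed by -3.54 and -3.40 points and by 3.72 and 2.66 points.

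**Figure D3:**
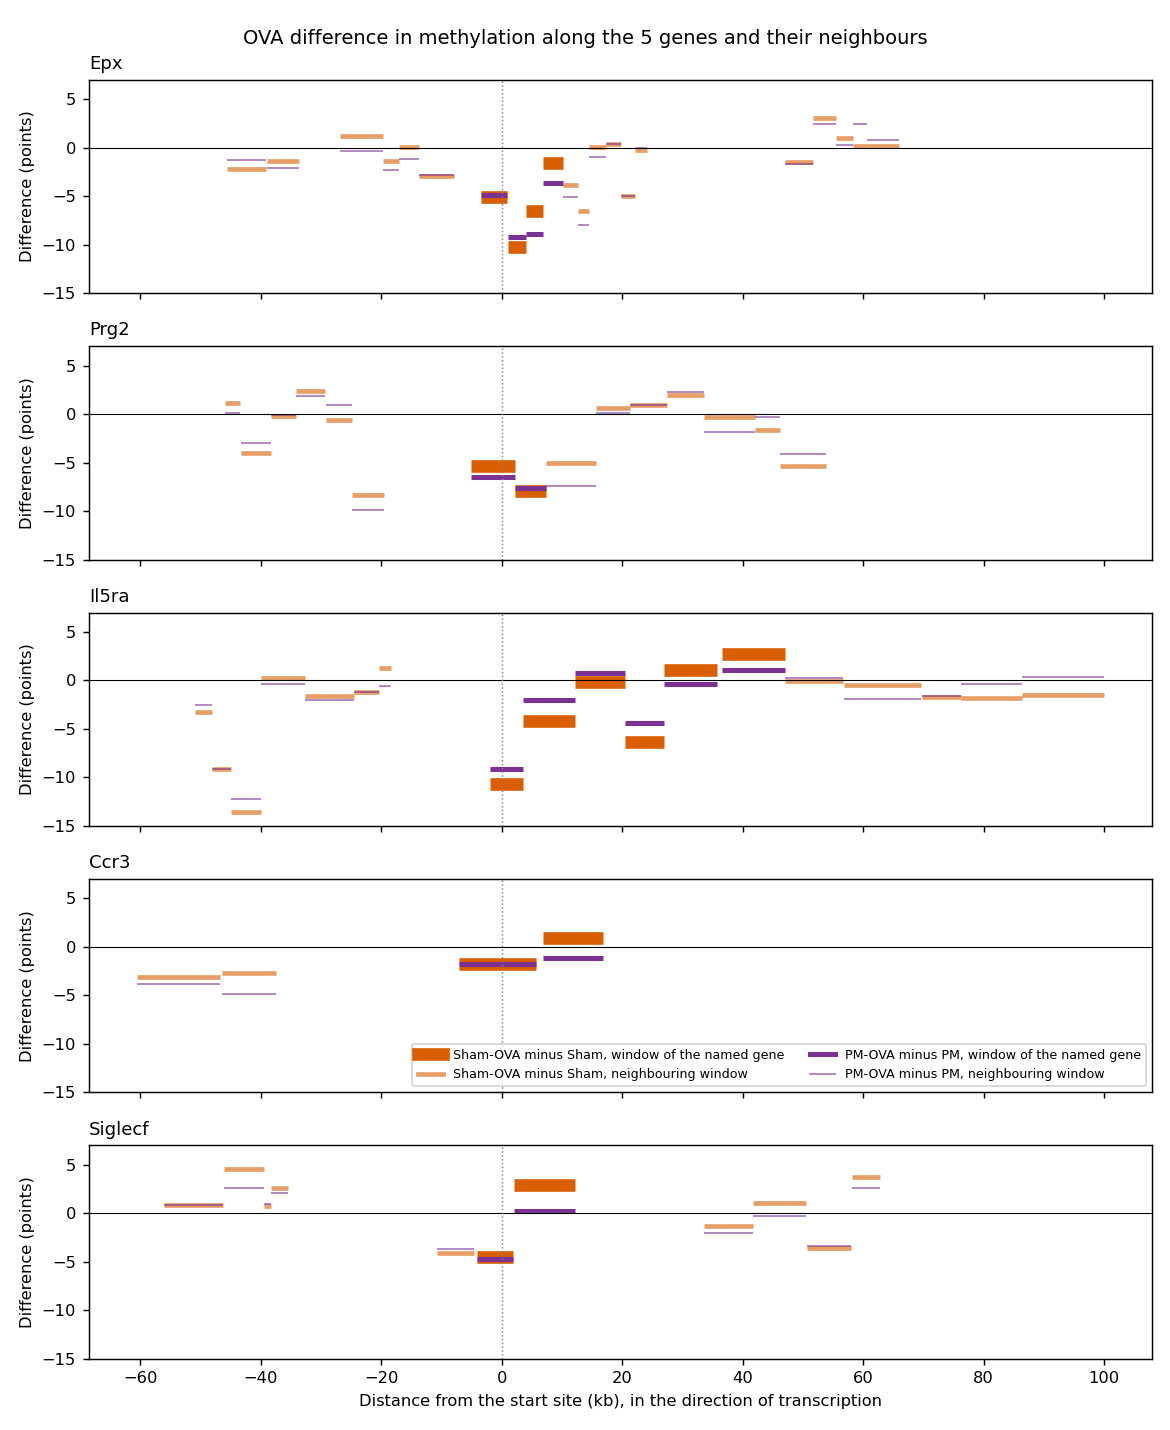
Difference in methylation after OVA (percentage points) against distance from the start site (kb, in the direction of transcription) for the windows of each gene (thick lines) and windows of other genes within 50 kb (thin lines), for Sham dams (orange) and PM dams (purple). Each line spans its window. Falls are seen in Epx, Prg2 and the start of Il5ra and also in windows of other genes, such as Crbn from -44.9 kb relative to the Il5ra start and Slc43a3 from -24.9 kb relative to the Prg2 start, where the fall was larger than in either Prg2 window.

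Whether maternal PM2.5 altered methylation of these genes was tested without and with OVA. No window passed between PM and Sham or between PM-OVA and Sham-OVA, where 0% of all windows did so (limma, 1 of 16 windows with an unadjusted p under 0.05 in each, against 5.79% and 5.96% of all windows). Without Sham replicate 1, 0 of 16 windows likewise passed in either contrast or in the interaction described next. The differences lay between -1.55 and 2.29 points without OVA and between -1.57 and 1.72 points with OVA. The 95% intervals of all 16 windows lay between -4.20 and 4.14 points without OVA and between -3.63 and 3.73 points with OVA, so larger differences lie outside them. The smallest p without OVA was in Ccr3 window 2, where Sham averaged 67.9% ± 1.42 (SD, n = 7) and PM 70.2% ± 1.83 (SD, n = 7, limma, unadjusted p = 0.0080, adjusted p = 0.817). With OVA it was in Il5ra window 2, where Sham-OVA averaged 62.3% ± 1.77 (SD, n = 7) and PM-OVA 64.1% ± 0.697 (SD, n = 8, limma, unadjusted p = 0.0425, adjusted p = 0.832).

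The OVA difference of PM dams minus that of Sham dams, the interaction, was tested in the same model. No window passed (limma, 0% of all windows, 1 of 16 with an unadjusted p under 0.05 against 7.4% of all windows). The window with the smallest p was Epx window 4, which differed by -1.61 points for Sham dams and -3.68 points for PM dams (limma interaction, unadjusted p = 0.0369, adjusted p = 0.662). At the windows with the largest OVA differences, the interaction was 1.10 points in Epx window 2 (95% interval -2.50 to 4.71), 0.283 points in Prg2 window 2 (-2.29 to 2.85) and 1.54 points in Il5ra window 1 (-2.16 to 5.24). That Epx window 2 and Il5ra window 1 were DMRs for Sham dams alone is therefore not a difference between the kinds of dam that passed a test.

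Averaged over its windows in each library, Epx in the groups Sham, Sham-OVA, PM and PM-OVA had means of 78.2% ± 1.25, 72.3% ± 1.36, 78.2% ± 0.990 and 71.5% ± 1.15 (SD, n = 7, 7, 7 and 8). Prg2 had 81.7% ± 0.647, 75.0% ± 1.90, 82.7% ± 0.488 and 75.6% ± 1.41 in the same order. The gene means of Il5ra were nearer to each other, at 60.5% ± 1.01, 57.5% ± 1.09, 60.5% ± 1.25 and 58.2% ± 0.985, and 3 of its 6 windows did not pass in either comparison. Those of Ccr3 and Siglecf ranged from 71.4% to 72.9% and from 64.8% to 67.0% over the groups. In order of level, Prg2 was the most methylated gene in every group, followed by Epx, Ccr3, Siglecf and Il5ra. Without Sham replicate 1 the Sham means were 77.9% for Epx, 81.8% for Prg2, 60.5% for Il5ra, 71.6% for Ccr3 and 66.4% for Siglecf. Libraries of neighbouring genes in this order did not overlap in Sham and PM. After OVA, Epx (71.1% to 75.2%) overlapped both Prg2 and Ccr3 in Sham-OVA, and Ccr3 (70.4% to 72.7%) in PM-OVA.

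Libraries of a group were also compared with each other, after the group mean was taken off. Over the 29 libraries, the deviations of the windows with the largest OVA difference in each gene had Pearson correlations of -0.464 (Ccr3 with Siglecf) to 0.298 (Prg2 with Il5ra) over 10 pairs of genes. These are descriptions of points that share libraries. Windows over 1 Mb away or on other chromosomes were ranked by the same measure. The highest of so many correlations over 29 libraries can be this large by chance, so the ranking is a description and nothing is read from it. Those most like Epx window 2 were in Glb1l2 (r = 0.727), Ampd1 (r = 0.716) and Gm7639 (r = 0.709), among 258108 windows compared. For Prg2 window 2 they were in Gm5476 (r = 0.780), Sag (r = 0.747) and Gm32834 (r = 0.732), and for Il5ra window 1 in Gm6682 (r = 0.827), Slc4a9 (r = 0.806) and Flnc (r = 0.804). For the start-site window of Ccr3 they were in Gm27549 (r = 0.839), Abcb11 (r = 0.757) and Lrrc4c (r = 0.749), and for that of Siglecf in Tns3 (r = 0.739), Cfap74 (r = 0.728) and Gucd1 (r = 0.711).

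Other genes of the eosinophil programme were read from 5 lists with 62 genes, of which 58 had tested windows, 295 in all. For Sham dams 89 windows fell (30.2%) and 54 rose (18.3%), and for PM dams 116 fell (39.3%) and 44 rose (14.9%), so these shares of windows with an adjusted p under 0.05 lay closer to those of the whole table than the shares of the 16 windows did. With centred libraries 77 of the 295 fell and 62 rose for Sham dams, and 80 fell and 62 rose for PM dams. DMRs numbered 18 for Sham dams (11 lower) and 19 for PM dams (12 lower), or 6.1% and 6.44% of the 295 windows, against 0.775% and 0.584% of all tested windows. Without Sham replicate 1, 89 windows fell, 51 rose and 18 were DMRs for Sham dams. Other granule genes had 5 of 14 windows lower and 2 higher for Sham dams, and 7 lower and 1 higher for PM dams, with median differences of -1.62 and -2.48 points. Besides Prg3, the single window of Rnase2a, an eosinophil-associated ribonuclease gene, changed by -5.14 and -6.99 points, and that of Rnase2b, a gene of the same family, rose by 2.55 and 3.90 points. Reads of similar family members can be assigned to either gene, so both values are uncertain.

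Cytokines and receptors of eosinophil growth had 6 of 45 windows lower and 11 higher for Sham dams, and 8 lower and 9 higher for PM dams. Csf2rb had 2 of 6 windows lower and 2 higher for Sham dams and 3 lower and 0 higher for PM dams. In this gene, which encodes the subunit that pairs with the interleukin-5 receptor, a window (chr15:78324151-78328760) fell from 67.1% ± 2.83 (SD, n = 7) to 54.6% ± 3.57 (SD, n = 7) for Sham dams and from 65.6% ± 2.44 (SD, n = 7) to 54.4% ± 2.69 (SD, n = 8) for PM dams (limma adjusted p = 3.83e-07 and 8.52e-07). A short window of Csf2ra, the subunit that binds GM-CSF, rose by 17.3 and 13.0 points (limma adjusted p = 0.00223 and 0.00939). Of the 7 windows of this gene, 2 rose and 0 fell in each comparison. Il4ra, the interleukin-4 receptor gene, had 6 of 10 windows higher for Sham dams and 7 for PM dams. Genes of chemotaxis had 12 of 29 windows lower and 2 higher for Sham dams, and 16 lower and 1 higher for PM dams. The only DMR among them was a rise of 14.6 and 13.2 points in Ptgdr2, a prostaglandin D2 receptor gene. Of its 4 windows, 2 rose and 0 fell for Sham dams, and 1 rose and 1 fell for PM dams. The eotaxin gene Ccl24 had both of its windows lower in both comparisons. The single window of Ccl11, another eotaxin gene, differed by -1.01 points for Sham dams, which did not pass, and fell by 3.51 points for PM dams.

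Among transcription factor genes 36 of 95 windows were lower and 18 higher for Sham dams, and 45 lower and 14 higher for PM dams. The largest changes were a rise of 27.5 and 22.9 points in Gfi1, a transcriptional repressor needed for neutrophil development, and a change of -23.5 and -22.2 points in Ikzf1, a regulator of many blood lineages. Of the 7 windows of Gfi1, 3 rose in each comparison and 1 fell for Sham dams, and of the 17 of Ikzf1, 10 and 11 fell and 1 rose in each. Spi1, which encodes PU.1, changed both ways, with 5 of 10 windows lower and 4 higher for Sham dams (differences of -15.8 to 13.9 points) and 5 lower and 3 higher for PM dams (-16.8 to 13.5 points). Gata2 had a window that rose by 14.9 and 10.8 points, and 6 of its 12 windows rose and 1 fell in each comparison. Surface and adhesion genes had 30 of 112 windows lower and 21 higher for Sham dams, and 40 lower and 19 higher for PM dams. In Itgal and Itgb2, the subunits of a leukocyte integrin, 1 window each changed by -13.5 and -11.6 points for Sham dams. Itgal had 7 of its 11 windows higher and 1 lower, however, and Itgb2 had 2 of 9 lower and 1 higher. Selplg, with 2 of 5 windows lower and 2 higher, and Cd300a, with 2 of 3 lower and 0 higher, each had a window that changed by -10.5 points. These transcription and adhesion genes are used by many leukocytes and not by eosinophils alone.

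Marker lists of other cells were set beside the 16 windows, and no list shares a gene with another. The neutrophil list had 16 of 29 windows lower (55.2%) and 1 higher for Sham dams and 17 lower (58.6%) and 1 higher for PM dams, with median differences of -2.64 and -3.12 points. With centred libraries these counts were 15 lower and 1 higher, and 13 lower and 4 higher, and without Sham replicate 1 they were 16 lower and 0 higher for Sham dams. Its mean level per library ranged from 71.0% to 72.5% in Sham and from 68.1% to 71.2% in Sham-OVA, while the mean of the 16 windows ranged from 68.6% to 70.7% and from 65.5% to 67.6%. Its only DMR was in Mpo, the neutrophil peroxidase gene, and changed by -11.8 and -10.7 points. The alveolar macrophage list, whose cells carry Siglecf, had 31 of 76 windows lower and 8 higher for Sham dams and 44 lower and 2 higher for PM dams, with 0 DMRs. The part of these cells in the falls at Epx, Prg2, Il5ra and Siglecf was not tested.

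The mast cell and basophil list had 13 of 54 windows lower and 12 higher for Sham dams and 21 and 10 for PM dams, and its only DMR was a rise in Kit, the stem cell factor receptor gene, for both kinds of dam. T cell genes had 29 of 86 windows lower and 14 higher for Sham dams and 32 and 8 for PM dams, and B cell genes 35 of 150 lower and 34 higher, and 44 and 24. B cell genes had 4 DMRs lower and 1 higher in each comparison, among them windows of Blk, a B cell kinase gene, at -13.1 and -13.5 points, Cd79b, of the B cell receptor, at -11.4 and -13.9 points, and Pax5, a B cell transcription factor gene, at 12.7 and 13.4 points. Epithelial genes had 4 of 42 windows lower and 11 higher for Sham dams and 6 and 6 for PM dams. Endothelial genes had 41 of 179 lower and 45 higher, and 70 and 38, and mesenchymal genes 23 of 70 lower and 16 higher, and 29 and 10. Endothelial genes had 1 DMR lower and 2 higher for Sham dams and 1 and 1 for PM dams, and the lower one, in Pecam1, an adhesion gene, changed by -18.0 and -15.9 points, more than any window of the 5 eosinophil genes. Another Pecam1 window rose by 12.5 and 11.6 points, and of the 25 windows of this gene 11 rose and 4 fell for Sham dams and 10 rose and 3 fell for PM dams. T cell, epithelial and mesenchymal genes had 0 DMRs at the 10-point minimum (limma). The balance of these counts moved with centring: B cell genes then had 32 lower and 49 higher for Sham dams and 28 and 54 for PM dams, epithelial genes 4 and 17 and 2 and 12, endothelial genes 38 and 51 and 46 and 49, mast cell and basophil genes 10 and 15 and 14 and 15, T cell genes 21 and 16 and 18 and 16, and mesenchymal genes 19 and 17 and 20 and 17. Alveolar macrophage genes had 22 lower and 8 higher, and 27 and 6. Over all these lists and the programme lists, 0 windows had an adjusted p under 0.05 for either PM contrast or the interaction (limma). Within the 295 programme windows, 21, 14 and 19 had an unadjusted p under 0.05 for these contrasts (7.12%, 4.75% and 6.44%, against 5.79%, 5.96% and 7.4% of all tested windows), which is near the share of the whole table.

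**Figure D4:**
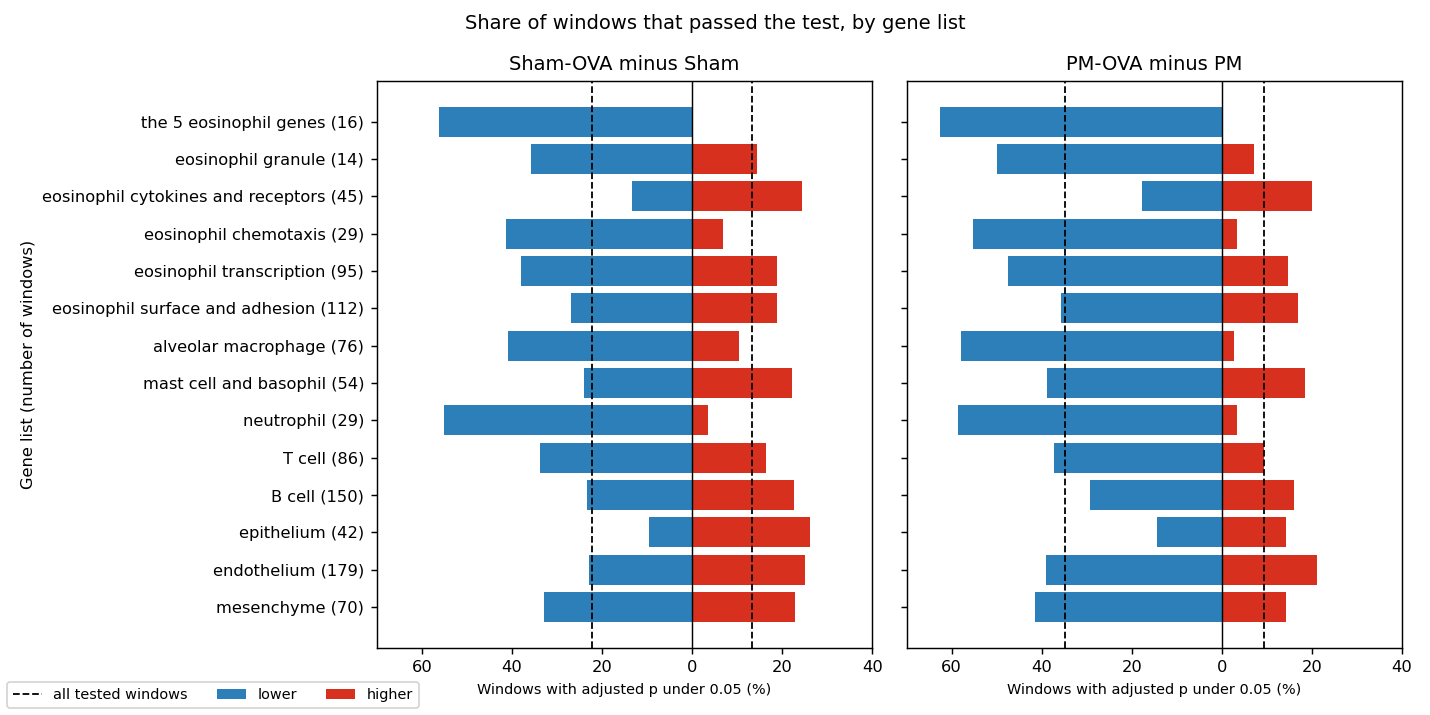
Percent of windows with an adjusted p under 0.05 that were lower (blue, to the left) or higher (red, to the right) after OVA, for the 5 eosinophil genes and 13 other gene lists, with the number of windows in parentheses. Dashed lines mark all tested windows (22.3% lower and 13.3% higher for Sham dams, 34.8% and 9.26% for PM dams). The 5 eosinophil genes had 56.2% and 62.5% of windows lower and 0 higher, against 2 and 1 windows higher with centred libraries, which are not plotted.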

How the data were processed

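Methylation was read in 29 lung DNA samples by enzymatic conversion of unmethylated cytosines and sequencing (WGMS). Per the labels and methods, the authors used Trim Galore for trimming, DRAGEN for alignment to GRCm38 and methylation calls, and SeqMonk for windows. Each deposited value is the percent methylation of 1 window in 1 library, and the authors pooled no replicates. Apart from library size as a covariate in the study's test, no normalisation between libraries is described. No batch is labelled, and litters are not given, so p-values treat offspring as independent.

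Percentages were transformed to log2((percent + 1)/(100 - percent + 1)) and fitted with limma 3.58.1 (R 4.3.3) over all 29 libraries in 4 groups, 2-sided, with Benjamini-Hochberg adjustment over 259167 windows. Intervals in percentage points came from the same model on untransformed values. The study's test used read counts, which were not used here. Simulated data for OVA in Sham were scored by the DMR criteria. Of 200 changed windows, 196 (98%) were recovered, and 0 of 258967 unchanged windows were falsely called. Calls by adjusted p alone, on which the falls short of the DMR minimum rest, were not tested in this way. Positions came from GENCODE M21 and sequences from RefSeq, read with Python 3.11.15, pysam 0.24.0 and pandas 2.3.3, and plots used matplotlib. Genes and lists were chosen with earlier results of these data known. Named were every start-site window, windows called in an OVA contrast (otherwise the one with the largest mean absolute OVA difference), and at most 4 genes per programme list with a window called in both OVA contrasts. Rnase2a, Rnase2b, Il4ra, Ccl24, Ccl11 and single neighbours within 50 kb were chosen after their values were seen. Alternatives were an analysis of raw percentages, another offset, centred libraries, other minimum differences, the study's p threshold, other filters, fits of the compared groups alone, robust moderation, a replicate block and leaving out each library.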

Additional observations from a re-analysis of the deposited data

Results flagged for a closer look

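Of 64 groups checked (16 windows in 4 groups), 1 held a library far from its fellows, where chance alone would mark about 1 in 20. In Epx window 3, PM-OVA replicate 4 had 75.8%, against 73.4% in the next highest library and a group mean of 72.6%. Its gap was 0.532 of the range of the group, over the critical value of 0.526 for 8 libraries.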

How the results depend on the processing

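The 9 calls shared by both OVA comparisons kept their direction, and 8 of them kept an adjusted p under 0.05, in all 37 refits of each comparison, the exception being Il5ra window 2 for PM dams. Refits that leave out a library of the other kind of dam do not change a difference, so they test its call only weakly. Of the windows that did not pass, Siglecf window 2 and Il5ra window 6 passed as rises for Sham dams in 8 and 7 refits (adjusted p down to 0.0151 and 0.00904), Il5ra window 6 for PM dams in 1 (0.0265), Epx window 4 as a fall for Sham dams in 2, without Sham or Sham-OVA replicate 7 (0.0378 and 0.0234), and Ccr3 window 1 as a fall for PM dams in 1, without PM replicate 6 (0.0498). DMR counts depended on the 10-point minimum. For Sham dams the 2 DMRs became 7 at a minimum of 5 points and 9 with none, against 5.96% and 35.6% of all tested windows, and 1 when libraries were centred (Epx window 2 at -9.93, 0.815% of all windows called). Leaving out 1 library gave 1 to 2, with 1 without Sham replicate 1 or Sham-OVA replicates 2, 4 or 6, where Epx window 2 lay between -9.98 and -9.68 points. For PM dams the 0 DMRs became 5 at 5 points and 10 with none, against 5.89% and 44.1% of all windows. The programme lists held 18 DMRs for Sham dams, 60 at 5 points (20.3% of their windows) and 143 with none (48.5%), and 19, 64 (21.7%) and 160 (54.2%) for PM dams. Replicate numbers of the titles are shared across groups, and same-numbered libraries had correlations of 0.0362 to 0.13 for replicate 1 and -0.0705 to 0.102 for the others (9 of 28 libraries were nearest to their own number), so the numbers were not taken as pairs. Library names give 10 libraries another number or none, and pairs by those numbers had r of -0.0444 to 0.13. A replicate block gave 2 and 0 DMRs and 9 and 9 windows with an adjusted p under 0.05 for Sham and PM dams. Centring moved the median of all windows from -0.414 to -0.0176 points for Sham dams and from -1.03 to -0.0514 for PM dams. The interaction had no fit on compared groups alone. Without counts, depth limits could not be given.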
